A study of Mus musculus with 2 samples.

Results

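The DNA damage response and repair genes described here are 42 named mouse genes, taken by symbol from a table of 22020 gene symbols, with the transcript of the highest mean level standing for each symbol. They comprise checkpoint kinases and mediators, the MRN complex, and members of homologous recombination, end joining, base excision, mismatch repair, nucleotide excision repair and the Fanconi anaemia pathway. All 42 were found, and all 42 passed the filter of a mean of at least 1 RPKM (reads scaled by transcript length and by library size) that 11356 of the 22020 genes passed. RNA-seq was done on LSK cells, the lineage-negative, c-Kit-positive and Sca-1-positive fraction that contains blood stem cells and early progenitors, from C57BL/6 mice aged 8 weeks. One library came from p53 KO mice, labelled as lacking the tumour suppressor p53, and the other from Utx/p53 DKO mice, labelled as lacking p53 and also Utx (Kdm6a), a histone H3 lysine 27 demethylase. By the labels, then, p53 is deleted in both genotypes, and no wild-type library was analysed here. The labels do not name the deleted exons, a Cre driver or the number of mice behind each library.

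Cells meet broken or altered DNA with sensor complexes and kinases that halt the cell cycle, and with repair routes suited to the kind of lesion. Double-strand breaks are either rejoined directly by non-homologous end joining, which the Ku proteins start, or copied from the sister chromatid by homologous recombination, which needs Brca1, Palb2 and Brca2. Altered single bases go to base excision repair, replication errors to mismatch repair, bulky lesions to nucleotide excision repair, and crosslinks between strands to the Fanconi anaemia proteins. In blood stem cells, defects in these routes are known for bone marrow failure and leukaemia, and end joining is also needed to assemble the receptor genes of lymphocytes.

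Each genotype has a single library, of 17088105 reads for p53 KO and 19926294 for DKO by the file's header, so no test between genotypes was possible and the spread between mice is unknown. Every value below describes these 2 libraries, p53 KO first, and intervals are exact 95% intervals for counting error only. Kdm6a was at 5.32 and 1.26 RPKM, and Trp53 transcripts were present at 19.4 and 12.9 RPKM. With the deleted exons unnamed, the Trp53 level does not check the p53 label. The libraries also differed in the cells their RNA pointed to. Of 14 measured marker genes of LSK cells, 10 were at least 2-fold lower in the DKO library, and Flt3, Meis1 and Cd34 differed most, whereas Ly6a (Sca-1) was at 255 and 281 RPKM and the other gene of the sort, Kit, at 64.2 and 16 RPKM. Of 16 granulocyte and monocyte markers, 13 were at least 2-fold higher, led by Ly6c2, Elane and Lyz2, and 2, Ltf (32.9 and 5.42 RPKM) and Itgam (7.10 and 2.62 RPKM), were lower. Their summed share of all RPKM was 1.76% and 15.3%. Erythroid markers (9 of 10 lower, with Hba-a1, Hba-a2 and Hbb-b2 foremost) and B cell and lymphoid progenitor markers (10 of 11 lower, with Dntt, Rag2 and Cd79a foremost) were lower in the DKO library, except that the pre-B cell gene Igll1 was higher, at 166 and 563 RPKM. Of 10 T and NK cell markers 6 were higher, led by Gzma, Cd3d and Ncr1, and 2 were lower. No marker was at 0 in either library except Epor, listed at 0 in the DKO library. The part of these cell differences in any repair gene's value was not tested, and in bulk RNA fewer cells of a type cannot be told apart from less RNA per cell.

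As a group the repair genes lay where the other genes lay. Their median difference on the log2(RPKM + 1) scale, DKO minus p53 KO, was -0.24, and the median over all 11356 measured genes was also -0.24. Of the 42 genes, 21 lay above that all-gene median and 21 below it. A difference of at least 2-fold on this scale was counted as higher or lower. By that rule 0 of the 42 were higher, where 6.6% of all genes were, and 4 were lower, where 13.5% of all genes were. The 4 were Xrcc5, Xrcc6, Trp53bp1 and Parp1, of which Parp1 (-1.03) lay just past the threshold. Palb2 (-0.97) and Ercc2 (-0.95) lay just short of it. At the looser rule of 1.5-fold, 16 were lower against a background of 29.6%, and 1, Fanca, was higher against a background of 13%. These counts move with the scaling of the libraries. Taken relative to the all-gene median, 3 were at least 2-fold lower (Xrcc5, Xrcc6 and Trp53bp1; background 8.76%) and 1 was higher (Fanca; background 9.63%). With the authors' own normalization constants 0 were lower (6.27% of all genes) and 2, Fanca and Ercc1, were higher (16.5% of all genes). In the authors' deposited table the GFOLD value, a log2 fold change pulled towards 0 by the counting error, was above 0 for 21 of the 42 genes (54.5% of all genes) and below 0 for 13 (22.9% of all genes). The direction of a single gene can also turn with the scaling. RPKM was higher in the DKO library for 11 of the 42 genes (34.8% of all genes), whereas the authors' deposited table gives a log2 fold change above 0 for 25 of them, since its scaling, which uses the constants on reads not divided by the library totals, raises every DKO value by 0.602 on the log2 scale. Over 5 scalings (RPKM as deposited, the authors' constants, equal sums, equal upper quartiles and the all-gene median), 17 genes were lower under each one (33.4% of all genes): Atm, Atr, Chek1, Mdc1 and Trp53bp1 among the checkpoint genes, Palb2 and Xrcc3 in recombination, Xrcc5, Xrcc6 and Prkdc in end joining, Parp1, Xrcc1 and Ogg1 in base excision, and Msh6, Pms2, Ercc2 and Fancc. Higher under all 5 were Ercc1, Fanca, H2afx and Lig4, 4 of the 42 (20.4% of all genes). The direction of the other 21 depended on the scaling.

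**Figure D1:**
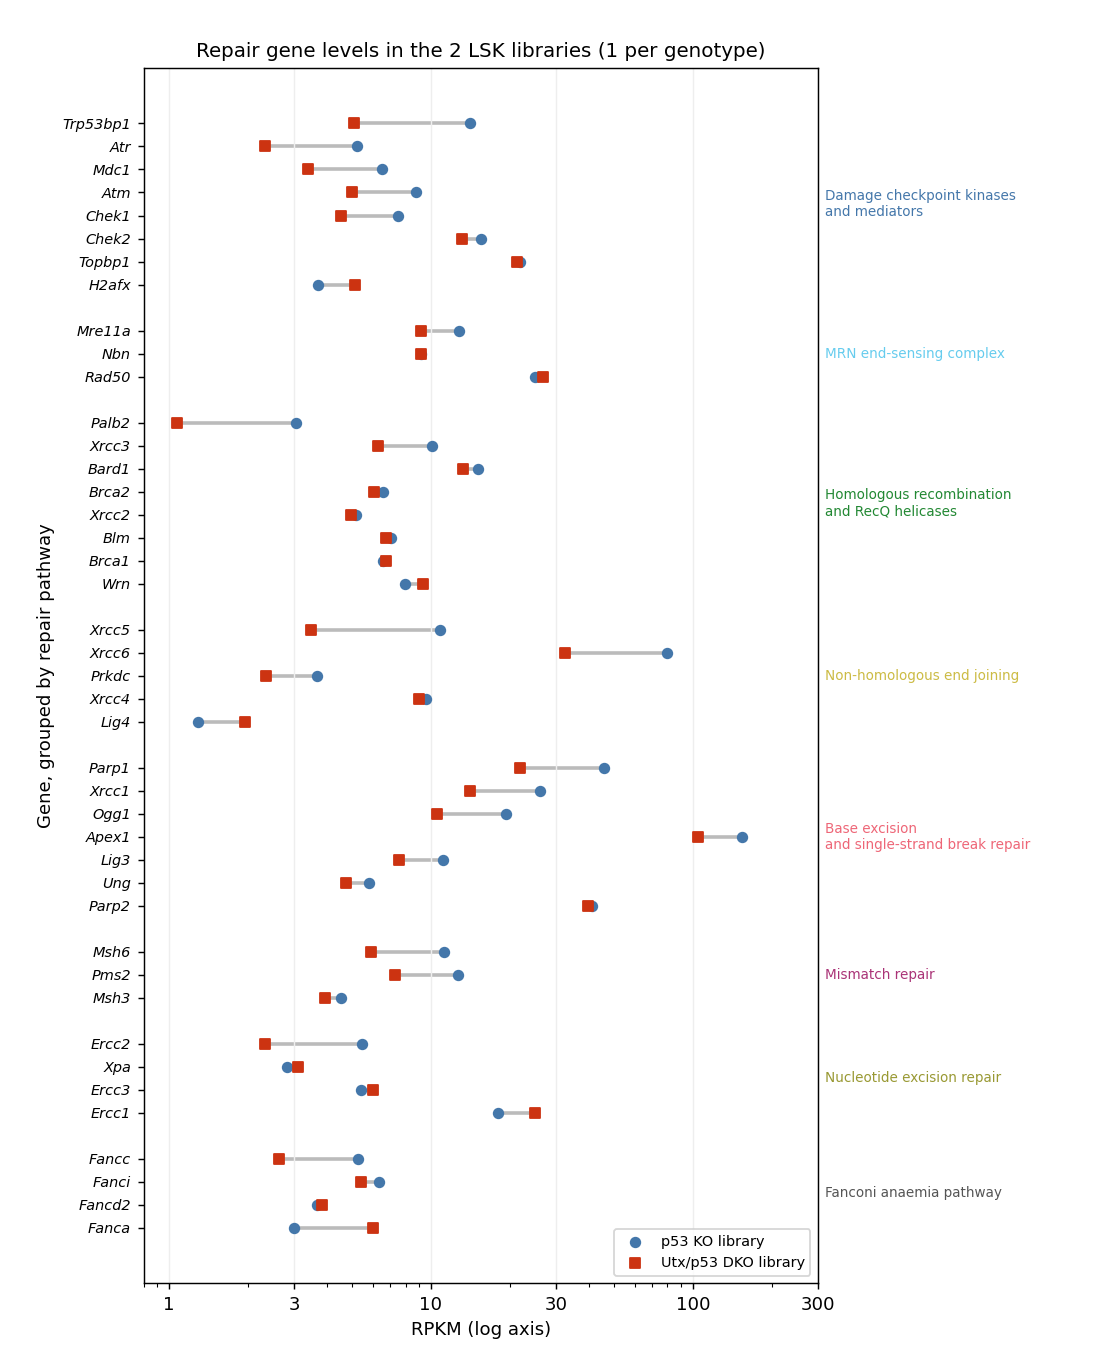
RPKM of the 42 repair genes (log axis) in the p53 KO library (blue circles) and the Utx/p53 DKO library (red squares), 1 library each, grouped by pathway and joined by a grey line. Levels run from 1.07 RPKM (Palb2, DKO) to 155 RPKM (Apex1, p53 KO), and the longest lines belong to Xrcc5, Palb2, Trp53bp1 and Xrcc6.

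The promoters of the 4 genes at least 2-fold lower and of Fanca, the gene with the highest ratio, are shown because these 5 genes mark the ends of the range. Each is the RefSeq window of 300 bases, 250 before and 50 after the annotated start, on the strand of the gene, in build GRCm38.p6, which is not the mm9 build of the expression table. Capitals mark matches on either strand to 5 short words searched for: E2F words (TTTCGCGC, TTTGGCGC, TTTCCCGC or TTTGCCGC), an NRF1 word (GCGCATGC), a CCAAT box (CCAAT), a GC box (GGGCGG) and an ETS word (CCGGAAG). The windows are chr1:72307171-72307470 on the plus strand (Xrcc5), chr15:82016119-82016418 on the plus strand (Xrcc6), chr2:121271358-121271657 on the minus strand (Trp53bp1), chr1:180568641-180568940 on the plus strand (Parp1) and chr8:123318527-123318826 on the minus strand (Fanca).
Xrcc5: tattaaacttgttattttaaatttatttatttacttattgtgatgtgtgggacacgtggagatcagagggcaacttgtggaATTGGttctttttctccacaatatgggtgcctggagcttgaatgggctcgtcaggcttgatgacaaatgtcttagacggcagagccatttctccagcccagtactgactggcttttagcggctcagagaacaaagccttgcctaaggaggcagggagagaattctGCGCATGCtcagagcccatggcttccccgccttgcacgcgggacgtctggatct
Xrcc6: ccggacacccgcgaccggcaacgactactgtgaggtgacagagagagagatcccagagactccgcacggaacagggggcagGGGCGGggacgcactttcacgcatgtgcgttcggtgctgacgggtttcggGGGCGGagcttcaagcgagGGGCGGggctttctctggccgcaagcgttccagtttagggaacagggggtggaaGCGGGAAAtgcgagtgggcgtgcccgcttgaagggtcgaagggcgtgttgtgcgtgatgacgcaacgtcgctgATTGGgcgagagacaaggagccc
Trp53bp1: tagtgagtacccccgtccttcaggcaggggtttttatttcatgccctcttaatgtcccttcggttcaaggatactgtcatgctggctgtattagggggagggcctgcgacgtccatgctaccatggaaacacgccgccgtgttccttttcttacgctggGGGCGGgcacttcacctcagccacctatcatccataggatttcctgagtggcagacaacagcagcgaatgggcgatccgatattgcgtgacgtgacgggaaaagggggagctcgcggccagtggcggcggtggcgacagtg
Parp1: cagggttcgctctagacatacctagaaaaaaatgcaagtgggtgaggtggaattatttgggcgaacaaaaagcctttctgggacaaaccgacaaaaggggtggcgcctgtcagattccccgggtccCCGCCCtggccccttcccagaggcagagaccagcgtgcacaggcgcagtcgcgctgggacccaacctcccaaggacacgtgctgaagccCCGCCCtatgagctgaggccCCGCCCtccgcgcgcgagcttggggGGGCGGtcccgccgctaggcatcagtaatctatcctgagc
Fanca: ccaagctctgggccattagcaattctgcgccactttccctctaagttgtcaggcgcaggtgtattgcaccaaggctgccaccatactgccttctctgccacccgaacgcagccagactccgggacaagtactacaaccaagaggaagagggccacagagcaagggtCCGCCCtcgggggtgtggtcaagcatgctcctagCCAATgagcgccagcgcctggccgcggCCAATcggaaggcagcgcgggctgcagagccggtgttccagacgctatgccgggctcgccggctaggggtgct

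A GC box was found in 4 of the 5 windows and a CCAAT box in 3. Xrcc6 has 30 CpG dinucleotides and holds 3 GC boxes, an E2F word and a CCAAT box, while its partner Xrcc5 has 9 CpG dinucleotides, no GC box, an NRF1 word that starts 4 bases before the annotated start and a CCAAT box. Parp1 holds 4 GC boxes, Trp53bp1 holds 1 GC box, and Fanca holds 1 GC box and 2 CCAAT boxes. Of the 42 repair genes 34 were matched to a promoter. Of these, 8 held an E2F word (Bard1, Brca2, Chek2, Mdc1, Msh3, Msh6, Topbp1 and Xrcc6), against 2.26% of all 32851 promoters and 4.03% of the 10088 promoters of measured genes. An NRF1 word was found in 6 (5.40% of promoters of measured genes), a CCAAT box in 19 (38.5%), a GC box in 26 (61.2%) and an ETS word in 9 (18.1%). The log2 differences of the 8 genes with an E2F word ran from -1.28 (Xrcc6) to -0.04 (Topbp1). The 8 genes without a promoter to search were Rad50, H2afx, Prkdc, Fancd2, Ercc3, Nbn, Xrcc2 and Wrn. Of the 11 genes with higher RPKM in the DKO library, only Brca1, Ercc1, Fanca, Lig4 and Xpa could therefore be searched, and none of these held an E2F word. With most of those 11 not searched, E2F words cannot be compared between higher and lower genes. A match is only a run of letters and shows no binding.

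Among the genes of non-homologous end joining, those of both Ku subunits were lower in the DKO library under each scaling tried. Of the ligase step, Lig4 was higher under each scaling, and the direction of Xrcc4 depended on the scaling. Xrcc6 encodes Ku70 and Xrcc5 encodes Ku80, which together form the ring that slides onto a broken end. Xrcc6 was at 80.0 and 32.4 RPKM (2890 and 1364 reads), 2.47-fold lower (95% interval 2.32 to 2.64). Xrcc5 was at 10.8 and 3.49 RPKM (473 and 178 reads), 3.10-fold lower (2.60 to 3.70), and had the lowest log2 difference of all 42, -1.40. Only 6.55% of measured genes had a lower one. The Ku70 transcript was thus far more abundant per length than the Ku80 transcript in both libraries, and their ratio, Xrcc5 over Xrcc6, was 0.135 and 0.108. Prkdc, the catalytic subunit of the DNA-dependent protein kinase that Ku recruits, was at 3.69 and 2.35 RPKM (log2 difference -0.49). The ligase Lig4 and its partner Xrcc4 seal the break. Xrcc4 was at 9.57 and 8.99 RPKM, a ratio whose interval (0.789 to 1.12) holds 1. Tmem167, on the opposite strand, shares 7.27% of the exon bases of Xrcc4 and was at 21.3 and 28.6 RPKM. The part of Tmem167 reads in the Xrcc4 value was not tested. Lig4, the member with the lowest level in the p53 KO library, was higher in the DKO library, at 1.29 and 1.96 RPKM (90 and 159 reads), a ratio of 1.52 (1.16 to 1.98). The 5 genes of this route thus spread from -1.40 to 0.37, and their median difference was -0.49. The median over 20 measured neighbours on the chromosome was 0.16 for Xrcc5, with 1 of the 20 lower than Xrcc5 itself, and -0.31 for Xrcc6, with 4 of the 20 lower than Xrcc6.

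Of the 8 genes of checkpoint kinases and mediators, Trp53bp1 alone passed the 2-fold rule, and Atr, Mdc1, Atm and Chek1 also lay below the all-gene median. Chek2 and Topbp1 turned direction with the scaling, and H2afx was higher under each scaling tried. Trp53bp1 encodes 53BP1, which binds chromatin beside breaks and favours end joining over resection. It was at 14.2 and 5.06 RPKM (1865 and 778 reads), 2.80-fold lower (2.57 to 3.04), with a log2 difference of -1.32. The 20 measured neighbours of Trp53bp1 on chromosome 2 had a median log2 difference of -0.74, and 0 of the 20 were lower than Trp53bp1 itself. Tubgcp4, a gene on the opposite strand whose exons share 22.1% of the exon bases of Trp53bp1, was at 9.41 and 4.11 RPKM. The sources used here do not say whether reads were counted by strand, so reads of these 2 genes cannot be told apart where they overlap.

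The apical kinases were both lower. Atm, which answers double-strand breaks, was at 8.80 and 5.00 RPKM (log2 difference -0.71). Atr, which answers single-stranded DNA at stalled forks, was at 5.24 and 2.32 RPKM (-0.91). By the RPKM ratio Atr was 2.26-fold lower (1.99 to 2.57), which its log2(RPKM + 1) difference understates because the level is low. Mdc1, the scaffold that reads phosphorylated H2AX, was at 6.53 and 3.41 RPKM (-0.77). The highest upper bound among these 3 ratios was 0.611, for Atm. Of the downstream kinases, Chek1 was at 7.46 and 4.52 RPKM (-0.62) and Chek2 at 15.5 and 13.1 RPKM (-0.23), the latter close to the all-gene median and above 0 with the authors' constants. Topbp1, the activator of Atr, was at 21.9 and 21.2 RPKM, a ratio with an interval of 0.909 to 1.03. H2afx, the gene of the histone variant H2AX that is phosphorylated around breaks, was at 3.70 and 5.13 RPKM (86 and 139 reads), a ratio of 1.39 (1.05 to 1.84). H2A genes resemble each other in sequence, so the H2afx value is uncertain. The median over the 8 genes of this class was -0.66, lower than that of all genes by 0.43. This held for the 8 listed genes only: the 25 checkpoint genes in the list of other repair genes below had a median of -0.18. That was higher than the all-gene median by 0.06, and 16 of the 25 lay above it.

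The 3 genes of the MRN complex, which senses and trims broken ends, ran from -0.44 to 0.10. Rad50, its structural subunit, was at 25 and 26.8 RPKM and Nbn, which brings in Atm, at 9.19 and 9.19 RPKM. Mre11a, the nuclease, was at 12.8 and 9.19 RPKM, a ratio of 0.718 (0.640 to 0.805). In the DKO library Mre11a and Nbn stood at the same level per length, and Rad50 above both. Rad50 and Nbn are on the higher side with the authors' constants and on the lower side with equal sums.

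On the RPKM scale as deposited, homologous recombination genes lay close to no difference, apart from Palb2 and Xrcc3. Brca1, Bard1, Brca2, Xrcc2, Blm and Wrn are on the higher side with the authors' constants and on the lower side with equal sums. Brca1, which steers breaks into this route, was at 6.57 and 6.75 RPKM, and Bard1, its obligate partner, at 15.2 and 13.3 RPKM. Brca2, which loads the recombinase on resected DNA, was at 6.58 and 6.04 RPKM, and Xrcc2, of a recombinase paralogue complex, at 5.19 and 4.93 RPKM. Their log2 differences ran from -0.18 (Bard1) to 0.03 (Brca1). Palb2, which links Brca1 to Brca2, was at 3.05 and 1.07 RPKM (195 and 80 reads), 2.84-fold lower by the RPKM ratio (2.18 to 3.74). The log2(RPKM + 1) difference of Palb2, -0.97, understates that ratio because the level is low. Xrcc3, another recombinase paralogue, was at 10.1 and 6.28 RPKM (-0.61). Of the RecQ helicases, which unwind recombination intermediates, the listed genes hold Blm and Wrn only. Blm was at 7.04 and 6.77 RPKM, a ratio whose interval (0.856 to 1.08) holds 1. Wrn was at 7.93 and 9.32 RPKM, a ratio of 1.18 (1.08 to 1.28). The median of the 8 genes was -0.08, higher than that of all genes by 0.15.

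**Figure D2:**
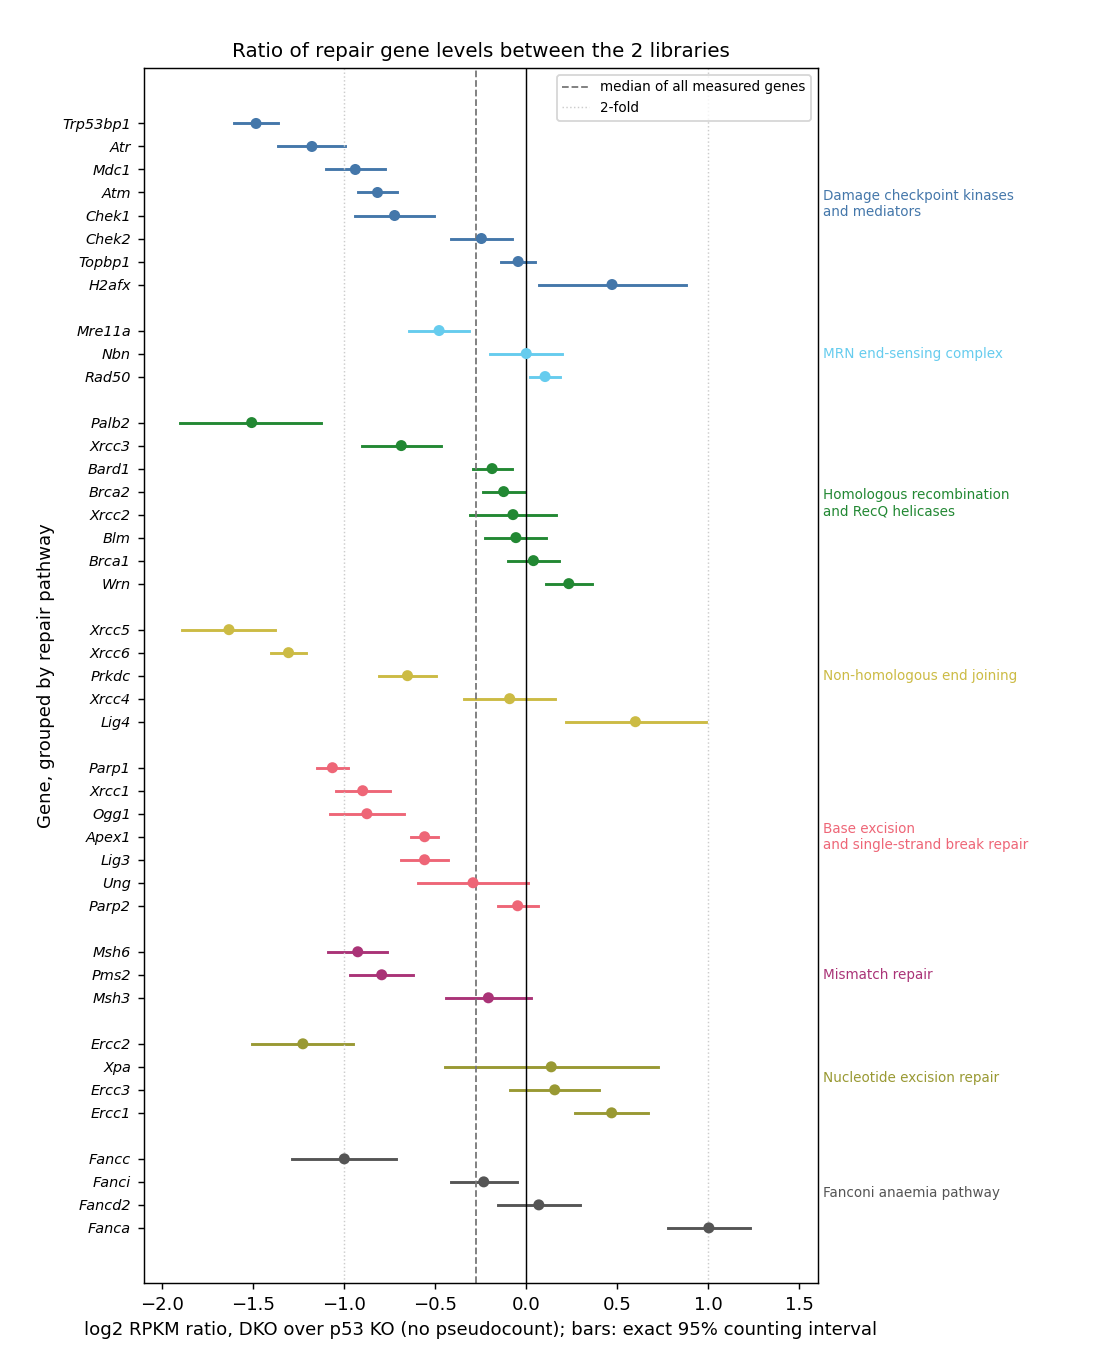
log2 of the RPKM ratio, DKO over p53 KO, without a pseudocount, for the 42 repair genes by pathway; points are the ratios of 1 library each and bars the exact 95% counting intervals. The dashed line is the median of all measured genes (-0.28 on this scale) and the dotted lines mark 2-fold; Xrcc5, Palb2, Trp53bp1 and Xrcc6 lie farthest to the left and Fanca farthest to the right.

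All 7 genes of base excision and single-strand break repair had lower RPKM in the DKO library, where only 34.8% of all measured genes had higher RPKM. Apex1, Lig3, Parp2 and Ung are above 0 in the authors' deposited table, and 6 of the 7 lay below the all-gene median. Parp1, which marks strand breaks with poly(ADP-ribose), was at 45.8 and 21.9 RPKM (2994 and 1670 reads), 2.09-fold lower (1.97 to 2.22), with a log2 difference of -1.03. None of its 20 measured neighbours on the chromosome was lower. Its relative Parp2 was at 41.2 and 39.9 RPKM, so that Parp1 was at 1.11 times the level of Parp2 among p53 KO cells and at 0.549 times among DKO cells. The scaffold Xrcc1, which Parp1 activity recruits, was at 26.2 and 14.1 RPKM (-0.85), and the ligase it stabilises, Lig3, at 11.1 and 7.56 RPKM (-0.50). Rffl, on the opposite strand, shares 27.9% of the exon bases of Lig3 and was at 6.25 and 5.39 RPKM, so the Lig3 level is uncertain. The glycosylase Ogg1, which removes oxidised guanine, was at 19.4 and 10.6 RPKM (-0.82), and the uracil glycosylase Ung at 5.80 and 4.74 RPKM (-0.25). Apex1, the endonuclease that cuts at the emptied base site, was the most abundant of the 42, at 155 and 105 RPKM (-0.55). Exons of Pip4p1 on the opposite strand share 70.8% of the exon bases of Apex1, and that gene, listed as Tmem55b, was at 71.4 and 54.7 RPKM, so the Apex1 level is uncertain. The median of the 7 genes was -0.55. The 16 measured genes of this route in the list of other repair genes below had a median of -0.20, and 10 of the 16 lay above the all-gene median.

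Of the 3 mismatch repair genes, Msh6 and Pms2 were lower under every scaling tried and Msh3 was not. Msh6, which recognises single mismatches, was at 11.2 and 5.89 RPKM (814 and 500 reads; log2 difference -0.82). Pms2, part of the endonuclease that follows, was at 12.7 and 7.31 RPKM (-0.72). Msh3, which recognises small loops, was at 4.55 and 3.94 RPKM, with an interval of the ratio (0.737 to 1.02) that holds 1. The level of Msh6 was 2.45 times that of Msh3 with p53 KO and 1.49 times with DKO.

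Nucleotide excision repair genes went both ways. Ercc2, a helicase of the TFIIH complex, was at 5.46 and 2.33 RPKM (331 and 165 reads), 2.34-fold lower by the RPKM ratio (1.93 to 2.84). Klc3 and the antisense gene Gm26852, both on the opposite strand, share 16.4% and 18.1% of the exon bases of Ercc2. Klc3 was at 2.59 and 1.29 RPKM, and the part of such reads in the Ercc2 value was not tested. The other TFIIH helicase, Ercc3, was at 5.41 and 6.03 RPKM with an interval (0.941 to 1.32) that holds 1. Ercc1, part of the nuclease that cuts on the 5′ side of the lesion, was at 18.1 and 25 RPKM (334 and 539 reads), a ratio of 1.38 (1.21 to 1.59). The damage verifier Xpa had the fewest reads of the group, 46 and 59, at 2.82 and 3.10 RPKM. Its interval on RPKM as deposited (0.735 to 1.65) holds 1. The direction of both Ercc3 and Xpa depended on the scaling. The median of these 4 genes was 0.12, the highest of the 8 classes. This held for the 4 listed genes only. The 16 measured genes of this route in the list of other repair genes below had a median of -0.16. Of those 16, 4 had higher RPKM in the DKO library and 11 lay above the all-gene median.

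In the Fanconi anaemia pathway the core complex genes Fanca and Fancc differed in opposite directions. Fanca was at 2.99 and 5.99 RPKM (232 and 542 reads), a ratio of 2.00 (1.71 to 2.35), and 91.0% of measured genes had a lower log2 difference. Its value on the log2(RPKM + 1) scale was 0.81. Zfp276, which lies on the opposite strand and shares 8.62% of the exon bases of Fanca, was at 2.39 and 5.21 RPKM, and the part of its reads in the Fanca value was not tested. Fancc, of the same core complex, was at 5.25 and 2.63 RPKM (281 and 164 reads), a ratio of 0.501 (0.410 to 0.609). The pair that the core complex tags with ubiquitin differed little: Fancd2 was at 3.67 and 3.85 RPKM and Fanci at 6.36 and 5.41 RPKM.

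The ratio between 2 genes within a library does not depend on how the libraries are scaled, so 14 pairs of genes that act together or in opposition were compared in this way. The pairs were chosen with the values known. The largest change was between Trp53bp1 and Brca1, which favour opposite routes of break repair: their ratio was 2.16 and 0.750, 2.87-fold lower (2.52 to 3.27). Brca2 over Palb2 was 2.16 and 5.63, 2.61-fold higher (1.97 to 3.47). Parp1 over Parp2 was 2.02-fold lower (1.83 to 2.23). These 3 were the only pairs of the 14 whose ratio changed by 2-fold or more. Smaller changes were seen for Mre11a over Rad50, at 0.512 and 0.342, for Chek1 over Chek2, at 0.480 and 0.345, and for Atm over Atr, at 1.68 and 2.16. The Xrcc4 over Lig4 ratio was 7.42 and 4.60. The counting interval of the change excluded no change for 13 of the 14 pairs, and Nbn over Rad50 was the exception (0.802 to 1.08). The same shares over pairs of other genes were not worked out, so these counts do not set the repair pairs apart from other genes. How far such ratios vary between mice of one genotype is unknown.

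**Figure D3:**
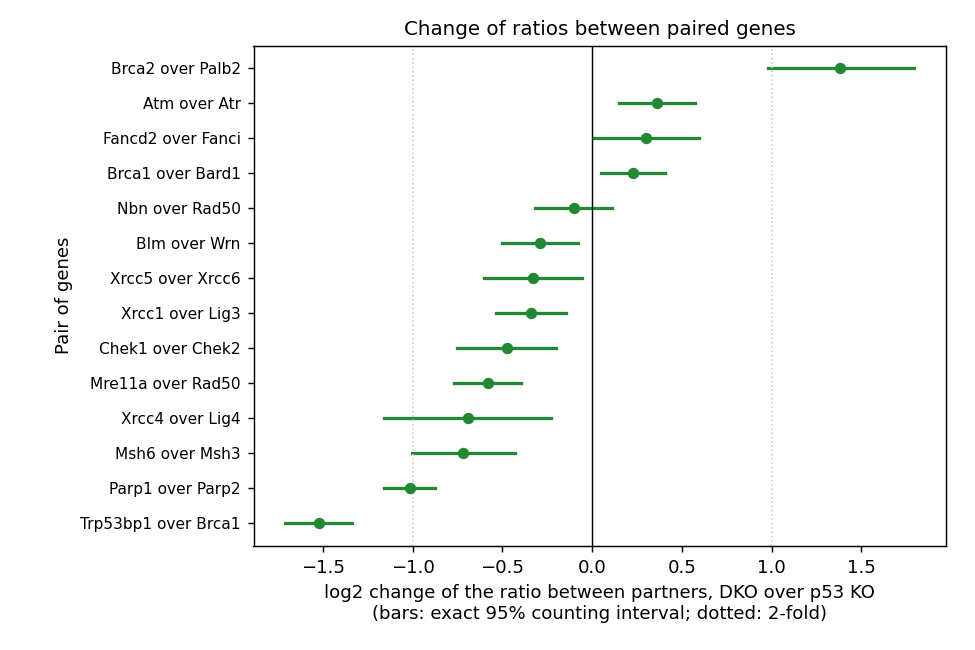
log2 change, DKO over p53 KO, of the RPKM ratio between 2 genes of the same library, for 14 pairs; points come from 1 library per genotype and bars are exact 95% counting intervals. Trp53bp1 over Brca1 (-1.52) and Parp1 over Parp2 (-1.02) lie at or beyond the 2-fold line on the low side, and Brca2 over Palb2 (1.38) on the high side.

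Whole reads could be worked out from the RPKM values without ambiguity for 36 of the 42 genes, with medians of 492 and 464 reads per gene. For the other 6 (Bard1, Brca2, Fanci, Parp2, Rad50 and Topbp1) the solution with the fewest reads, which gives the widest interval, was used. The interval of the RPKM ratio held 1 for 12 of the 42 genes. Of the 42 genes 6 were listed with 2 transcripts (Blm, Brca2, Ercc1, Fancc, Ung and Wrn), whose log2 differences lay within 0.11 of each other. By the GENCODE annotation, exons of 18 of the 42 genes share bases with a gene on the opposite strand.

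Other genes of the same routes, on a list of 132 symbols chosen by their textbook roles, also lay close to all genes. Of the 124 found, 119 were measured, with a median of -0.18. Those past the 2-fold rule were 3 on the higher side (6.6% of all genes) and 3 on the lower side (13.5% of all genes). Among the higher were Mapkapk2, a stress kinase of the checkpoint, at 23.0 and 61.0 RPKM, and Xpc, the damage sensor of nucleotide excision repair, at 39.1 and 88.5 RPKM. Among the lower were Gtf2h3, a TFIIH subunit, at 13.3 and 3.71 RPKM, and the meiotic gene Msh5, at 2.14 and 0.431 RPKM.

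Several repair genes are known to be made mainly in dividing cells. Among 27 measured marker genes of cycling cells the median was -0.06, above that of the repair genes, and only Bub1 passed the 2-fold rule, on the lower side (10.6 and 3.11 RPKM). Their summed level was 1495 and 1522 RPKM, or 0.414% and 0.325% of all RPKM. After Bub1, Aurka (36.3 and 18.9 RPKM) and Tk1 (40.5 and 69.4 RPKM) differed most. The summed level of the 42 repair genes was 680 and 484 RPKM, or 0.188% and 0.103% of all RPKM. This sum is weighted by abundant genes such as Apex1 (155 and 105 RPKM), Xrcc6 (80.0 and 32.4 RPKM) and Parp1 (45.8 and 21.9 RPKM). The median difference of the 42 genes was that of all genes. What part the larger share of granulocyte and monocyte RNA in the DKO library had in these lower levels on the RPKM scale was not tested.

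**Figure D4:**
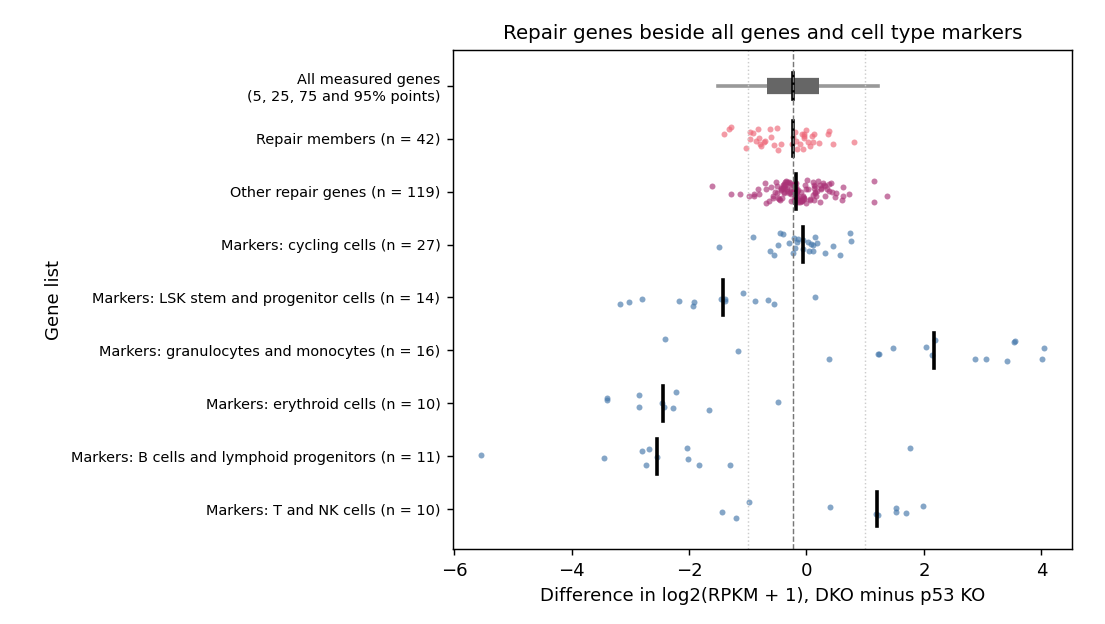
Difference in log2(RPKM + 1), DKO minus p53 KO, of each measured gene (points) in the repair list, the list of other repair genes and 6 lists of cell markers, with each list's median as a black bar. The top row gives all 11356 measured genes as their 5, 25, 75 and 95% points and median. The repair genes lie within the span of all genes around the same median, while the medians of the granulocyte, erythroid, B cell, T and NK cell and LSK marker lists lie more than 2-fold from it.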

How the data were processed

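The data are 2 RNA-seq libraries of LSK cells, 1 per labelled genotype. By the labels' protocols, 50 ng of total RNA was amplified with a SMART kit and sequenced from both ends at 100 bases. TopHat2 2.1.0, bcl2fastq 1.8.4 and the build mm9 stand in the submitters' processing notes. Per the file headers, the 1 table used (28344 transcripts) came from gfold 1.1.4 and holds RPKM of both libraries, the GFOLD value and a log2 fold change, both on a log2 scale. The deposited q-value (E-FDR) was 1 in every row. Columns were assigned by the header's order of libraries, whose names begin the sample titles. The sources used here do not say how strand and multiply mapped reads were handled.

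The scale was log2(RPKM + 1), on which changes of low genes look smaller, with a filter at a mean of 1 RPKM and a 2-fold rule. The authors' constants (1.30144 and 1) apply to reads, so against RPKM they shift log2 ratios by 0.602: 0.380 from the constants and 0.222 from the read totals that RPKM divides out. Whole reads were recovered as the transcript length at which both RPKM values and the deposited log2 fold change are whole reads within the printed digits; this was tested on simulated data. Ratio intervals are Clopper-Pearson, and those of pairs are exact conditional ones (scipy 1.17.1). No count test was made with 1 library per genotype. Promoters came from RefSeq (GRCm38.p6), gene order from the RefSeq table of that assembly by transcript accession, and exon overlaps from GENCODE. The repair genes and all lists, pairs and alternatives were chosen with earlier results of these data known. All 42 repair genes are named, as are Kdm6a and Trp53, other repair genes at least 2-fold apart (some of which are not reported here) and up to 3 markers per list; Kit, Ly6a, Epor, Ltf, Itgam and Igll1, and the genes overlapping others, were named after their values were seen.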

Additional observations from a re-analysis of the deposited data

How the results depend on the processing

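Results were recomputed under 11 alternatives. The median of the 42 repair genes relative to all genes, and that of the other repair genes, moved by less than 0.18 on the log2 scale (the median counting error of a repair gene) under each setting tried. The counts moved with scaling and threshold. Repair genes at least 2-fold lower (4) became 7 with a pseudocount of 0.1 (18.7% of all genes), 1 with a pseudocount of 5 (4.19%), 14 with equal summed RPKM (23.9%), 0 with the authors' constants (6.27%), 16 at 1.5-fold (29.6%) and 0 at 3-fold (4.34%). Those higher (0) became 1 after centring on the all-gene median (9.63% of all genes), 2 with the authors' constants (16.5%) and 1 at 1.5-fold (13%). Other repair genes lower (3) became 5 with a pseudocount of 0.1, 10 with equal summed RPKM, 1 with the authors' constants, 13 at 1.5-fold and 1 at 3-fold; those higher (3) became 0 with equal summed RPKM (4.39% of all genes), 10 with the authors' constants, 7 at 1.5-fold and 0 at 3-fold (3.25%). Of the 42 genes 39 kept their side of the all-gene median under the 8 settings that can move it. The same held for 7 of the 8 class medians. Genes with a mean below 5 RPKM drop out when the filter is a mean of 5 RPKM, so they were tried under the remaining settings only. With that filter the Fanconi anaemia median was -0.02 relative to all genes. The end joining median was then -1.10 because Prkdc and Lig4 drop out. No paired analysis was possible because there is 1 library per genotype, and no library could be left out.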
